A study of Homo sapiens with 4 samples.

Results

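The guanylate-binding protein genes *GBP1* to *GBP7* and the CXCR3 chemokine genes *CXCL9*, *CXCL10* and *CXCL11* were taken by their GENCODE v44 symbols, 10 of the 20033 protein-coding genes on the assembled chromosomes. Every Flag-FLI1 peak within 3 kb of one of their transcription start sites, inside them, or within 50 kb of either gene cluster was collected, which gave 23 of the 70473 peaks of the series. The peaks came from ChIP-seq with an anti-Flag antibody in HK1, a nasopharyngeal carcinoma cell line that overexpressed Flag-tagged FLI1 in both conditions. One library was from cells given PBS (control) and the other from cells given IFN-γ, each for 24 h. With 1 library per condition and no replicate, no difference between the conditions could be tested, and the intervals given below cover counting error only. The protein followed was tagged and overexpressed, the 2 input samples were not analysed here, and a peak list holds no RNA level, so neither expression of the genes nor the identity of the cells was checked.

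The guanylate-binding proteins are large GTPases that IFN-γ strongly induces and that assemble on intracellular pathogens and on the vacuoles that hold them. CXCL9, CXCL10 and CXCL11 are secreted chemokines, also induced by IFN-γ, that recruit activated T cells and natural killer cells through the receptor CXCR3. Promoters of IFN-γ-induced genes often hold a gamma-activated site (GAS) or an interferon-stimulated response element (ISRE), and IRF1 is one of the factors that bind the ISRE. FLI1 is an ETS-family transcription factor that recognises DNA around a GGAA core.

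The ISRE was searched on both strands as GAAA, any 2 bases and GAAA again, and the sites nearest the gene starts and the IFN-γ peaks are shown first, since 4 of the IFN-γ summits described below had one within 100 bp. All are from GRCh38, read on the minus strand, which is the coding strand of the chemokine genes and of every guanylate-binding protein gene except *GBP6*, and capitals mark the ISRE. The GBP1 promoter site lies at chr1:89065316-89065345, the GBP3 promoter site at chr1:89022845-89022874 and the GBP4 promoter site at chr1:89198927-89198956. The CXCL9 promoter site lies at chr4:76007661-76007690, the CXCL10 promoter site at chr4:76023699-76023728, the site in the peak upstream of *GBP5* at chr1:89274461-89274490 and the site in the peak upstream of *CXCL9* at chr4:76011922-76011951.
GBP1 promoter: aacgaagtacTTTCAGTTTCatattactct
GBP3 promoter: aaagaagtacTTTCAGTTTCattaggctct
GBP4 promoter: gtgcatgtccTTTCAATTTCggttctcaca
GBP5 upstream peak: tcctttttggTTTCTATTTCctacagagaa
CXCL9 promoter: ccatttatgtGAAATGGAAAtaaaaacatg
CXCL10 promoter: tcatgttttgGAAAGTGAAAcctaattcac
CXCL9 upstream peak: tctcatcaggTTTCTGTTTCtcctaaaagc
The *GBP* promoter and both upstream-peak sites hold the reverse complement of the searched letters on this strand, and the *CXCL9* and *CXCL10* promoter sites the letters themselves.

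A gene was counted as having a promoter peak where a peak lay within 3 kb of any of its annotated transcription start sites. In the control library 2 of the 10 genes had one, *GBP3* and *GBP5*, against 61.9% of all protein-coding genes. In the IFN-γ library 4 of 10 had one, *GBP3*, *GBP4*, *GBP5* and *CXCL11*, against 59.7% of all. Both counts of members lay under the share of protein-coding genes at large. *GBP4* and *CXCL11* had a promoter peak in the IFN-γ list and none in the control list, 2 of 10 members beside 3.70% of all protein-coding genes. Of the 8 members with no control promoter peak these were 2, while 9.73% of the 7626 protein-coding genes without a control promoter peak had one after IFN-γ. No member had a promoter peak in control alone, which 5.90% of all genes had. The remaining 6, *GBP1*, *GBP2*, *GBP6*, *GBP7*, *CXCL9* and *CXCL10*, had a promoter peak in neither list, as did 34.4% of all. A gene without a peak was under the calling cutoff and may still be bound.

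The control count depends on which start sites are used. The *GBP5* control peak lay 480 bp upstream of an internal start site at chr1:89262274 and 10.1 kb inside the gene from its MANE Select start (the reference transcript chosen by NCBI and Ensembl), in a coding exon. Against the MANE Select start alone, chosen as a measure after the values had been seen, 1 member had a control peak within 3 kb and 4 had an IFN-γ peak. The shares of all genes by this measure were not taken, so these counts have no genome-wide value beside them.

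IFN-γ peaks with no control peak overlapping them by 1 bp, called unshared here, lay within 3 kb of a start site of 4 of the 10 members, *GBP3*, *GBP4*, *GBP5* and *CXCL11*, against 13.5% of all protein-coding genes. For *GBP3*, *GBP4* and *CXCL11* the summit of the unshared peak lay 19, 66 and 72 bp upstream of the MANE Select start. A window of 100 bp around that start was set after these distances were seen, and an unshared IFN-γ summit fell in it for 3 of the 10 members and for 0.787% of the 19061 genes with a MANE Select transcript. No member had a control summit in that window, against 22.9% of those genes, and 3 had an IFN-γ summit in it, against 19.7%.

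The plot of nearest summits shows how far the members differed. Within 5 kb of the MANE Select start, 1 member had a control summit and 6 had an IFN-γ summit. The share of all genes with a summit this near was not taken, so these counts cannot be read as particular to the members. The nearest control and IFN-γ summits lay 10.1 and 1.66 kb from *GBP5*, 86.8 and 4.86 kb from *GBP7*, and 16.6 and 4.36 kb from *CXCL9*. They lay 32.6 and 11.6 kb from *CXCL10*, and both were 31.2 kb from *GBP6*. The IFN-γ list was longer (39654 against 30819 peaks), the lowest background in it was 1.46 times that of the control, and the part of list length in these distances was not tested.

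The 7 guanylate-binding protein genes lie side by side in chr1:89006679-89388160. Over this cluster and 50 kb on either side, a window of 481 kb, the control list held 4 peaks and the IFN-γ list 12, or 8.31 and 24.9 per Mb, beside 9.98 and 12.8 per Mb over the assembled genome. All 4 control peaks were overlapped by an IFN-γ peak, and 8 of the 12 IFN-γ peaks were unshared. The chemokine genes lie in chr4:76001275-76041415 in the order *CXCL9*, *CXCL10*, *CXCL11*, inside or next to the longer gene *ART3*, an ADP-ribosyltransferase family member on the opposite strand. Their window of 140 kb held 2 control and 5 IFN-γ peaks, or 14.3 and 35.7 per Mb, and 3 of the 5 were unshared. Over both windows 11 of 17 IFN-γ peaks were unshared, against 39.0% of all IFN-γ peaks, and 0 of 6 control peaks were unshared, against 22.5% of all control peaks. Of the IFN-γ peaks here within 3 kb of a start site of any gene, 6 of 11 were unshared, against 23.1% of such peaks genome-wide, and of the distal ones 5 of 6, against 53.0%.

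**Figure D1:**
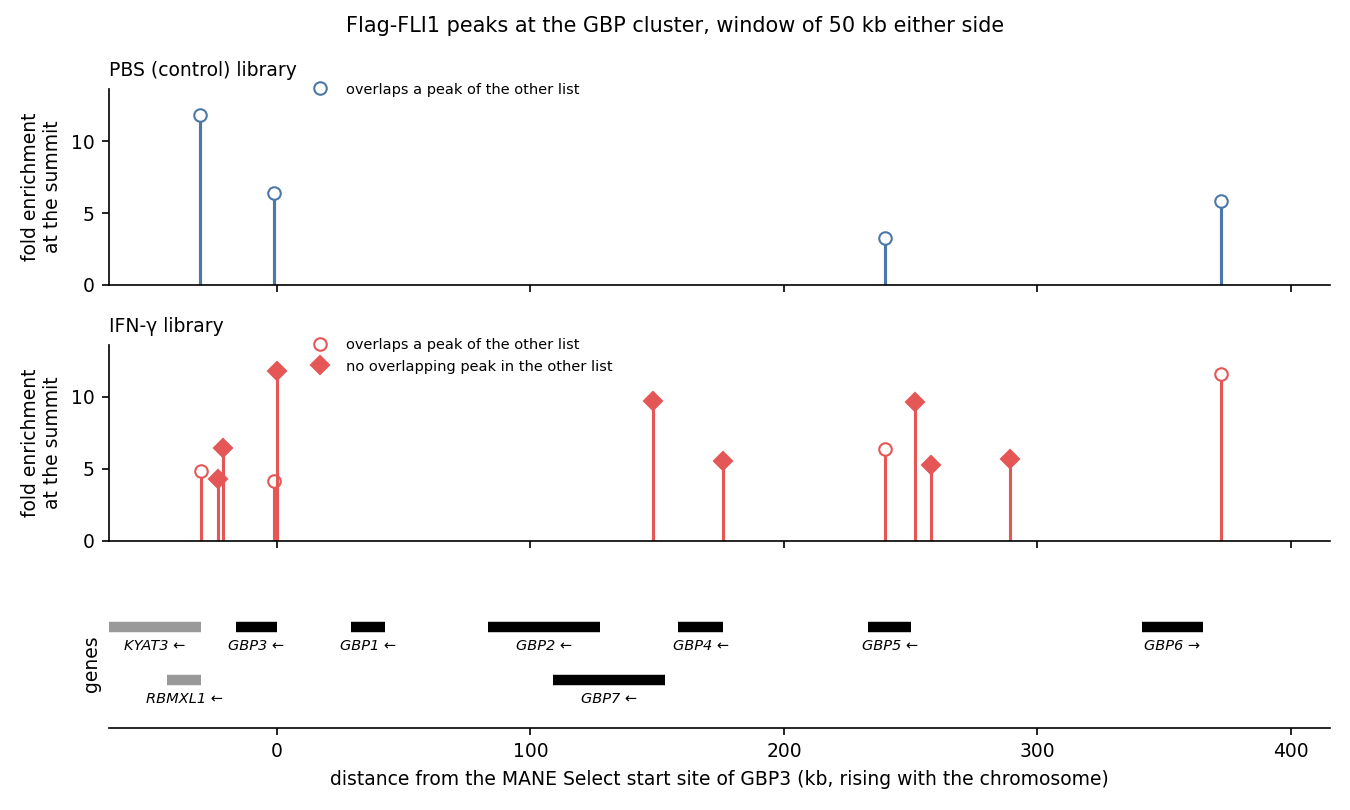
Flag-FLI1 peaks over the guanylate-binding protein cluster in the control (upper) and IFN-γ (middle) libraries, with fold enrichment at each summit (vertical axis) against distance in kb from the *GBP3* MANE Select start, and gene positions below (black, members; grey, neighbours; arrows, direction of transcription). Open circles overlap a peak of the other list and filled diamonds do not: the control library had 4 peaks, all overlapped, and the IFN-γ library had 12, of which 8 were not.

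*GBP3* had the peak with the highest fold enrichment among the unshared peaks. Fold enrichment is the pileup of fragments at the summit over the local background, each plus 1. The IFN-γ peak at chr1:89022616-89023072 had its summit 19 bp upstream of the MANE Select start, inside the 5′ UTR of a longer transcript, with a fold enrichment of 11.8 from 41 fragments over a background of 2.55. It ranked 7766 by p-value, in the top 19.6% of the IFN-γ list. Scaled to control depth the 41 fragments became 28.2 (95% interval 20.2 to 38.2), and the largest control pileup that would have stayed under the weakest p-value of the control list, at the IFN-γ background scaled likewise, was 7 fragments. The IFN-γ pileup was 4.02 times this limit. The limit takes the control background to equal the scaled IFN-γ one, which need not hold: at the shared *GBP5* exonic peak the control background was 2.68 and the IFN-γ one 1.99 before scaling. The limits given for the other peaks are conditional in the same way and are no bound on the control library. The ISRE of the GBP3 promoter line above was centred 25 bp from this summit. *GBP3* also had an intronic peak in both lists about 1.0 kb inside the gene, 14 fragments over 1.34 in control and 25 over 5.31 with IFN-γ, so that its fold enrichment was 6.41 and 4.12 while its pileup at equal depth was 1.23 times as high (0.613 to 2.55). The stretch within 100 bp of these intronic summits was not fully unique, 83.0% of its 31-base words occurring once in the genome, whereas at the start-site summit 100% did.

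*GBP4*, which lies between *GBP7* and *GBP5*, had an unshared IFN-γ peak at chr1:89198888-89199143. Its summit was 66 bp upstream of the MANE Select start, over an exon of the long non-coding RNA gene ENSG00000284734, with 19 fragments over 2.63 and a fold enrichment of 5.51. Scaled to control depth it held 13.0 fragments, 1.86 times the control limit of 7. The nearest control summit was 63.8 kb away. The GBP4 promoter site printed above was centred 66 bp from this summit.

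*GBP5*, which promotes assembly of the NLRP3 inflammasome, had 2 IFN-γ peaks counted at its start sites. The unshared one, at chr1:89274208-89274860, had its summit 1659 bp upstream of the MANE Select start between genes, with 31 fragments over 2.33 and a fold enrichment of 9.61. At control depth this was 21.3 fragments, 3.55 times the control limit of 6, and the ISRE of the GBP5 upstream peak line was centred 43 bp from the summit. The other was the exonic peak described above, with 11 fragments in control and 18 with IFN-γ, a ratio at equal depth of 1.12 (0.503 to 2.63). Farther upstream, 8.11 and 39.1 kb from the start, 2 more unshared peaks had fold enrichments of 5.23 (16 fragments) and 5.70 (37 fragments). Within 100 bp of the MANE Select start, *GBP5* had the lowest share of 31-base words found once in the genome among the 10 members, 41.5%, and the part of this in where peaks were called was not tested. At the summit upstream, 100% were.

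*GBP7* had no promoter peak, but an unshared IFN-γ peak at chr1:89170820-89171284 lay in its intron 4.86 kb past the start. It had 29 fragments over 2.09, a fold enrichment of 9.71, and at control depth 19.9 fragments, 3.32 times the control limit of 6. Its summit held none of the searched ISRE, GAS, AP-1 or ETS octamer letters, and the sequence is given with GGAA cores on either strand in capitals (chr1:89171087-89171207, minus strand).
GBP7 intron: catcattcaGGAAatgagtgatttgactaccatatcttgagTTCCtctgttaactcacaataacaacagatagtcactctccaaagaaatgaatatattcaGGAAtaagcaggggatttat

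*GBP1*, which coats cytosolic Gram-negative bacteria and recruits other members, had no summit nearer than 42.3 kb to its MANE Select start in either list, and *GBP2* none nearer than 45033 bp. Near the start of *GBP1* 87.1% of 31-base words were unique and near that of *GBP2* 100%. The *GBP1* and *GBP3* promoters share their longest identical run, 19 bp, over the ISRE shown in their lines above. Of these copies the one at *GBP3* lay inside a called IFN-γ peak. At the end of the cluster next to *KYAT3* and *RBMXL1*, 2 further unshared IFN-γ peaks lay 23.3 and 21.1 kb past the *GBP3* start, with fold enrichments of 4.31 (14 fragments) and 6.47 (22 fragments).

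*GBP6* had no peak near its start. A shared peak lay 31.2 kb past it, over a run of GGAA repeats, with 11 fragments and a fold enrichment of 5.84 in control and 32 fragments and 11.6 with IFN-γ. At equal depth the ratio was 2.00 (0.981 to 4.39), the highest of the shared peaks here and at the 92.6 percentile of all 24203 shared pairs, and its interval still held 1. Of the 31-base words within 100 bp of the 2 summits 71.3% and 74.3% were unique, and how reads from other repeats were placed was not tested. Its sequence is shown for the 16 GGAA cores, in capitals, around the summits (chr1:89395191-89395311, plus strand).
repeat downstream of GBP6: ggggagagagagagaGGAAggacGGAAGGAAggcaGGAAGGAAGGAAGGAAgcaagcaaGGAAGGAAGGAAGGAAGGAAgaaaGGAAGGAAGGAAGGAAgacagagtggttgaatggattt

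*CXCL11* had the strongest of the unshared peaks near the chemokines. The peak at chr4:76035707-76036278 had its summit 72 bp upstream of the MANE Select start, in an intron of a longer *CXCL11* transcript and of *ART3*, with 27 fragments over 2.48 and a fold enrichment of 8.05. At control depth it held 18.5 fragments, 2.65 times the control limit of 7, and the nearest control summit was 24010 bp away. A second unshared peak lay 749 bp upstream of the outer *CXCL11* start site, at chr4:76042035-76042266, with 10 fragments and a fold enrichment of 4.34, which was 1.37 times the control limit of 5. The 130 bases before the MANE Select start are shown because the first summit falls in them (chr4:76036071-76036200, minus strand, GGAA cores on either strand in capitals).
CXCL11 promoter: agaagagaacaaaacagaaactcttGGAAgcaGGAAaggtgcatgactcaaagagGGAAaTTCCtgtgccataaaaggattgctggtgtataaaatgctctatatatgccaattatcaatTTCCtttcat
Within 100 bp of that summit lay 1 AP-1 match (tgactca), 1 GAS match and 1 match of the kappaB letters (GGGA, any 2 bases, TTCC), and no ISRE.

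*CXCL9* and *CXCL10* had no peak within 3 kb of their single start sites. An unshared IFN-γ peak lay 4362 bp upstream of *CXCL9*, at chr4:76011713-76012055, in an *ART3* intron and 226 bp from an *ART3* start site. It had 17 fragments over 1.62 and a fold enrichment of 6.86, 2.34 times the control limit of 5, and the ISRE of the CXCL9 upstream peak line was centred 65 bp from its summit. For *CXCL10* this same peak was the nearest, 11.6 kb away. The ISRE in the *CXCL9* and *CXCL10* promoters thus had no called peak over them, and 100% of the 31-base words around all 3 chemokine starts were unique.

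**Figure D2:**
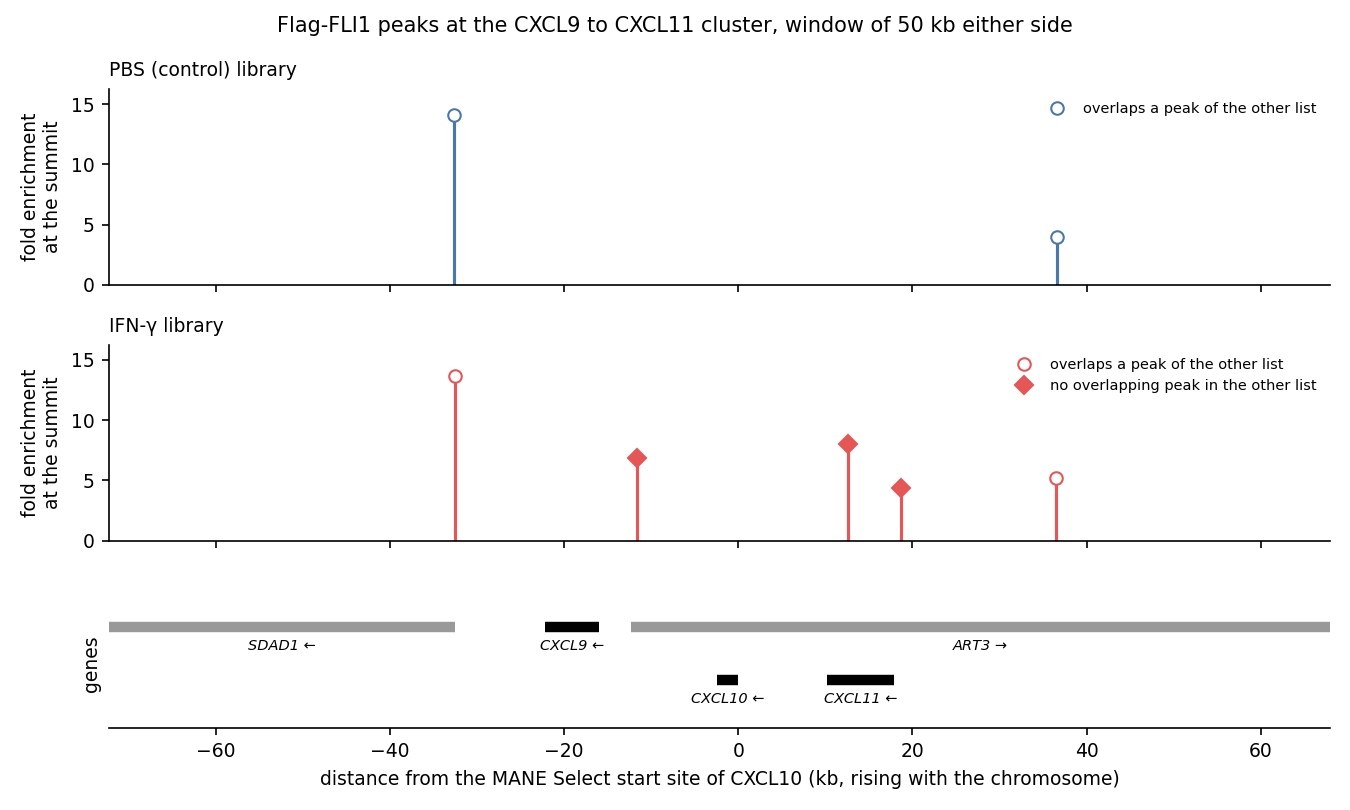
Flag-FLI1 peaks over the chemokine cluster, drawn as for the guanylate-binding protein cluster, with distance in kb from the *CXCL10* MANE Select start. The control library had 2 peaks, both overlapped by an IFN-γ peak, and the IFN-γ library had 5, of which 3 were not overlapped.

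The 11 unshared peaks had fold enrichments from 4.31 to 11.8 (median 6.47) and 10 to 41 fragments (median 22), while all unshared IFN-γ peaks of the genome had medians of 5.17 and 16. Scaled to control depth, each of the 11 kept a −log10 p between 4.70 and 24.8, above the weakest value of the control list, 3.52. The lower counting bound of the scaled pileup exceeded this conditional control limit at 9 of the 11. The exceptions were the peak 23.3 kb past the *GBP3* start and the one beside the outer *CXCL11* start. Peaks of 10 to 19 fragments rest on little depth. This bears on *GBP4* (19), the peak upstream of *CXCL9* (17) and the outer *CXCL11* peak (10). It also bears on the peaks 23.3 kb past the *GBP3* start (14) and 8.11 kb upstream of *GBP5* (16).

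The 6 peaks shared by the libraries gave no ratio beyond counting error, since all 6 intervals held 1. The promoter peak of *KYAT3* and *RBMXL1*, neighbours of *GBP3*, had 32 fragments over 1.79 in control and 28 over 4.96 with IFN-γ, a ratio at equal depth of 0.601 (0.349 to 1.03). The promoter peak of *SDAD1*, next to *CXCL9*, had 51 and 61 fragments and a ratio of 0.821 (0.557 to 1.22). The *ART3* intronic peak 24010 bp upstream, in control, of *CXCL11* had 11 and 17 fragments and a ratio of 1.06 (0.469 to 2.51). The median over all shared pairs was 0.995, with 0.868 at promoters and 1.24 at distal sites.

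**Figure D3:**
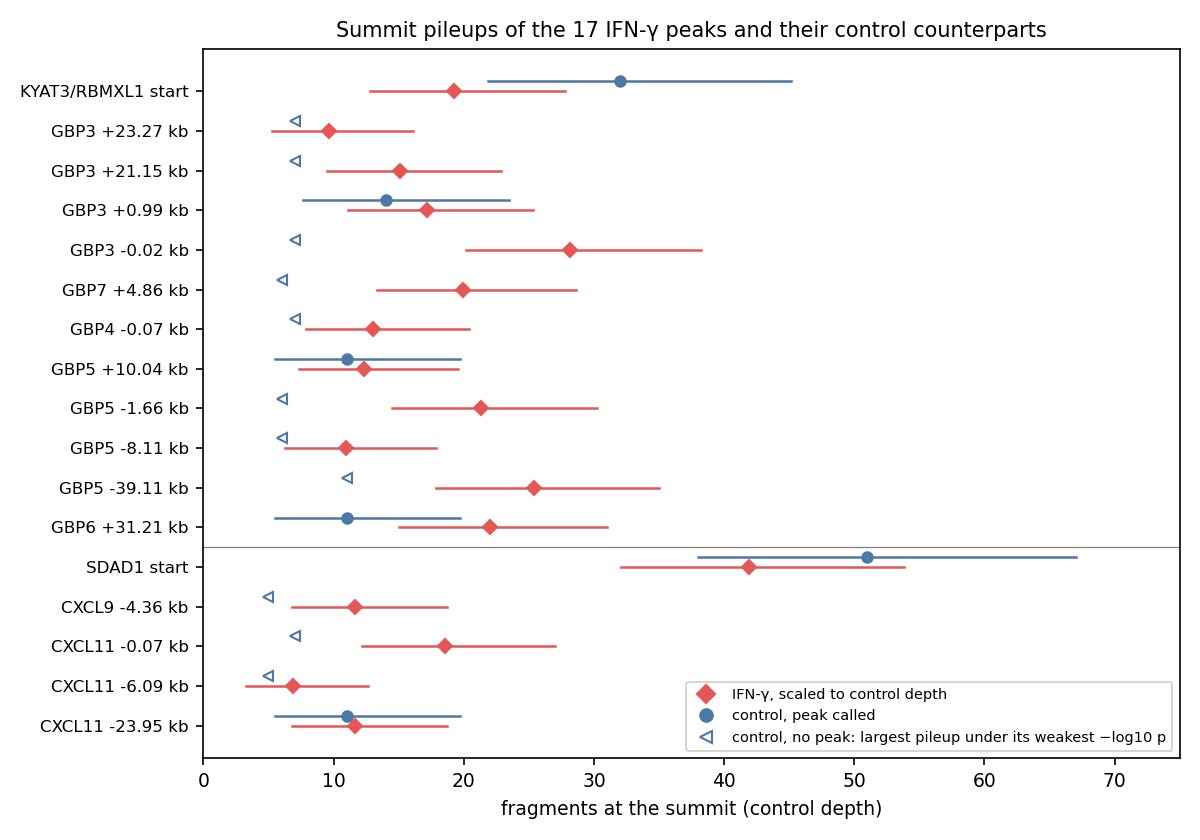
Fragments at the summit of each of the 17 IFN-γ peaks, scaled to control depth, with 95% counting intervals (diamonds), beside the fragments at the overlapping control peak (circles). Where none was called, open triangles give the largest control pileup that would have stayed uncalled if the control background equalled the scaled IFN-γ one. This is no measured control value. The *GBP3* start-site peak stood at 28.2 against a conditional limit of 7, and the 6 shared pairs had ratios from 0.601 to 2.00.

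Every one of the 23 summits had a GGAA core within 100 bp, which 97.9% of all IFN-γ and 96.1% of all control summits also had. None had a FLI1 octamer (CAGGAAGT or CCGGAAGT) within 100 bp, which 13.5% and 12.8% of all summits had. Farther from the summit, an octamer lay in the unshared peaks 23.3 kb past the *GBP3* start and 39.1 kb upstream of *GBP5*. The *GBP5* exonic peak also held an octamer, in both libraries. Shares over whole peaks of the genome were not taken. Among the 11 unshared IFN-γ summits an ISRE was found at 4, those at *GBP3*, *GBP4*, upstream of *GBP5* and upstream of *CXCL9*, against 12.6% of all unshared IFN-γ summits and 7.96% of all IFN-γ summits. None of the 6 shared IFN-γ or 6 control summits had one, and 4.07% of all control summits did. Over whole peaks, 2 more IFN-γ peaks held an ISRE away from the summit, the *GBP3* intronic peak, as did its control counterpart, and the unshared peak 39.1 kb upstream of *GBP5*. A GAS match (TTCNNNGAA) was found at 3 of the 11, at *GBP3*, upstream of *GBP5* and at *CXCL11*, against 7.78% of all unshared IFN-γ summits. AP-1 letters (TGACTCA or TGAGTCA) lay at the *GBP3* and *CXCL11* summits, 2 of 11, beside 20.9%. A run of 4 GGAA units lay at 1 of the 11, in the peak 23.3 kb past the *GBP3* start, beside 14.0%. The kappaB letters and a joined ETS-IRF element (GGAA, any 2 bases, GAAA), both searched after the values had been seen, lay at 2 (*GBP4* and *CXCL11*) and at 0 of the 11, beside 1.23% and 8.21% of all unshared IFN-γ summits. All letters were searched on both strands, each motif on its own, and the kappaB and ETS-IRF letters include a GGAA core.

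ISRE letters were found in some member promoters with a called peak and in some without one. Of the 8 members with a promoter in RefSeq (GRCh38.p14; 250 bases before to 50 after the start), 5 held an ISRE, *GBP1*, *GBP3*, *GBP4*, *CXCL9* and *CXCL10*, against 3.57% of 35116 promoters. Of these, *GBP3* and *GBP4* had an IFN-γ peak there and the other 3 had none. The FLI1 octamer was in 0 of the 8, against 7.02% of all promoters, and a GAS match in 2, against 7.66%. *GBP2* and *GBP5* were not in the promoter table. A match of letters is not a binding site, and a missing one says nothing about the factor.

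Of the 10 genes reported here that carry the IFN-γ signal, from receptor to factor, 9 had a control and 10 an IFN-γ promoter peak, beside 61.9% and 59.7% of all protein-coding genes. For these and the other listed genes below, a ratio compares the strongest IFN-γ promoter peak with the strongest control peak overlapping it. Other promoter peaks of the gene do not enter it. *JAK1*, the kinase bound to the receptor, had a ratio at equal depth of 1.51 (1.03 to 2.27). *IRF9*, the DNA-binding subunit of the complex that reads the ISRE, had an IFN-γ peak of 27 fragments and fold enrichment 8.96 and no control promoter peak. *IRF1*, which also binds the ISRE, had several promoter peaks in each list and a ratio of 0.949 (0.598 to 1.52). The strongest control promoter peak of *IRF1* lay at another site and did not enter this ratio. *NFKB1* had a ratio of 1.07 (0.719 to 1.61). Ratios for the receptor gene *IFNGR1*, 0.532 (0.299 to 0.936), and for *RELA*, 0.619 (0.422 to 0.907), lay under 1 with their intervals. *STAT2*, *JAK2*, *IRF2* and *IFNGR2* had ratios from 0.736 to 0.845, with intervals that held 1. At *IRF2* too, the strongest control promoter peak lay outside the pair compared. A further list held *ATL1*, *ATL2*, *ATL3*, *MX1*, *MX2*, *IRGM*, *IRGQ* and *RNF213*. Of these 8 genes, 7 had a promoter peak in each library and *IRGM* in neither. Among all protein-coding genes, 61.9% had a control and 59.7% an IFN-γ promoter peak. *MX1*, an antiviral dynamin-like GTPase, had a ratio of 1.42 (0.758 to 2.76), the one ratio above 1 in this list. The ratios of *RNF213*, *ATL1*, *ATL2*, *ATL3* and *IRGQ* lay from 0.604 (0.354 to 1.03) at *RNF213* to 0.778 (0.366 to 1.67) at *IRGQ*, and all 6 intervals held 1. The strongest IFN-γ peak at *MX2* overlapped no control peak and gave no ratio.

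Of 22 other CXC chemokines, their receptors and the CXCR3-ligand-cleaving protease gene *DPP4*, 6 had a promoter peak in each library and 16 in neither, *CXCR3* itself among the latter, beside 61.9% and 59.7% of all protein-coding genes with one and 34.4% with one in neither. *CXCL8*, the neutrophil chemokine, had 27 fragments in control and 78 with IFN-γ, a ratio of 1.98 (1.27 to 3.20), at the 92.4 percentile of all shared pairs. *DPP4* had a ratio of 2.06 (1.05 to 4.35), and *ACKR3*, a scavenger receptor that binds CXCL11, one of 1.66 (0.821 to 3.57). *CXCL2* stood at 1.03 (0.525 to 2.08) and *CXCL3* at 0.792 (0.352 to 1.81). *CXCL16* stood at 1.72 (0.724 to 4.51), from 20 fragments with IFN-γ and 8 in the overlapping control peak. The strongest control promoter peak of *CXCL16*, with 12 fragments, lay at another site and was not overlapped by this IFN-γ peak. As in all of these values, an interval that leaves out 1 compares these 2 libraries and not the treatments.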

How the data were processed

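HK1 cells overexpressing Flag-FLI1 were given PBS or IFN-γ for 24 h, 1 ChIP library each; the 24 h is from the study's methods. Per those methods and the submitters' processing notes, the authors trimmed reads (cutadapt 1.18), aligned them to GRCh38 (Bowtie2 2.3.4.1), removed duplicates (Picard) and called peaks with MACS2 2.1.2 in each library. The deposited peak tables give a score, a ratio (fold enrichment), −log10 p-value, −log10 q-value and summit offset. Depth per library is not in them.

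From these, whole pileup and background at each summit were solved from the fold and the −log10 p. Pileups were scaled by the ratio of the lowest backgrounds. Peaks were matched by an overlap of 1 bp. Ratios carry exact Clopper-Pearson and single pileups exact Poisson 95% intervals; PCR copies and biological spread are outside them. The scripts were tested on simulated data. Genes came from GENCODE v44 and promoters from RefSeq. Python 3.11.15, numpy 2.4.6, scipy 1.17.1, pandas 2.3.3 and matplotlib 3.10.9 were used. The named genes are the 10 members, genes under or next to their peaks, and members of 3 lists with a promoter peak. Members, lists and measures were chosen with earlier results of these data known. 1 listed gene is not reported here.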

Additional observations from a re-analysis of the deposited data

How the results depend on the processing

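Other settings gave 36 values, of which 28 stayed within 1.5 times the reported count or within the counting interval, among them all 12 for the shared-peak ratios. The number of members with a control promoter peak went from 2 to 1 with q under 1e-05, and to 1 with the MANE Select start alone, a setting chosen after seeing the data. The IFN-γ number was 4 in both. With a promoter window of 10 kb the IFN-γ number was 6 and the control number stayed at 2. The shares of all protein-coding genes under these other settings were not taken. Without flanks the guanylate-binding protein window held 2 control and 8 IFN-γ peaks instead of 4 and 12. The chemokine window then held 0 control and 2 IFN-γ peaks instead of 2 and 5. With 100 kb flanks the chemokine window held 4 control peaks, and with q under 1e-05 it held 1. With peaks matched by summits within 100 bp, 1 control peak had no partner in place of 0. The causes of these changes were not tested beyond what each setting removes or adds. No paired analysis was possible because there is 1 library a condition. Depth limits the weakest peaks, and the control list cannot show binding under its cutoff.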
